A study of Homo sapiens with 12 samples.

Results

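BRG1, the product of SMARCA4, was depleted by siRNA in Wnt3A-treated HEK293T cells, and the RNA was compared with that of si-control cells given the same Wnt3A treatment. The comparison takes 2 of the 12 arrays of the series, chosen by their labels alone, 1 labelled si-BRG1 and 1 labelled si-control. HEK293T is a transformed line derived from human embryonic kidney. All HEK293T cultures received 15 nM siRNA for 72 h, and both cultures compared here then received Wnt3A conditioned medium for 9 h before RNA extraction. BRG1 was targeted with a purchased pool of siRNAs and the control with a non-targeting pool. The 4 other HEK293T arrays (si-control in control medium, and si-MLLT10, si-DOT1L, and si-P300 after Wnt3A) are set beside this pair to show how far a value lies from the other cultures, and the BRG1 and control arrays of Ls174T, a colorectal cancer line, show the same depletion in other cells. The Ls174T cultures also received 15 nM siRNA for 72 h, but no Wnt3A induction is listed for them. The study states that a β-catenin mutation keeps the Wnt pathway of this line active. Treatment as well as cell line therefore differs between the lines. Every condition was measured on 1 array, so differences are given without p-values, and how far replicate cultures would differ is unknown.

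BRG1 is the ATPase of SWI/SNF complexes, which use ATP to slide or evict nucleosomes and so open or close the DNA of promoters and enhancers. Cells carry BRG1 or its close relative BRM (SMARCA2) in these complexes, together with core subunits such as SMARCB1 and with exchangeable subunits. In the Wnt pathway, Wnt3A binding to Frizzled and LRP receptors stabilises β-catenin, which enters the nucleus and activates target genes together with TCF/LEF factors. BRG1 is among the chromatin proteins that bind β-catenin, and its depletion was one of the comparisons through which the study asked which coactivators the Wnt response depends on.

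On each array, Cy3-labelled sample RNA was hybridised together with Cy5-labelled universal human reference RNA. The level of a gene is given as log2 sample over reference, and a change is the level after BRG1 depletion minus the si-control Wnt3A level. An array held 43376 features that are not controls, of which 28220 to 30411 were well-measured on the 6 HEK293T arrays, and no feature was saturated. The error given as ± with a change is the error model of the scanning program, combined over both arrays (median 0.31), and it leaves out the spread between cultures. As a check of the label, 8 of 10 markers of colorectal cells were lower on every HEK293T array than on every Ls174T array read against reference RNA. VIL1, CEACAM5, and CDH17 of these were well above background on 0 of the 6 HEK293T arrays, but the range of CDX2 and MUC2 overlapped that of Ls174T cells, and CDX2, MUC2, LGALS4, and TFF3 were well above background on all 6. Of 7 markers of HEK293T cells, LIN28B, NEFL, NEFM, SALL1, and LHX1 were higher on every HEK293T array, and POU3F3 and SIM2 overlapped between the lines. The si-BRG1 array lay on slide 2 and the si-control Wnt3A array on slide 4, so slide and depletion cannot be told apart in their difference. The si-P300 array lay on the same slide as the si-BRG1 array, and the difference between these 2 arrays, which holds the slide constant but sets 1 depletion against another, is printed beside the main results.

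SMARCA4 itself fell 15.5-fold. Its level was 0.27 in si-control cells in control medium, 0.25 in si-control cells after Wnt3A, 0.27 after MLLT10 depletion, 0.37 after DOT1L depletion, 0.20 after P300 depletion, and -3.71 after BRG1 depletion. The 5 other arrays thus lay within a narrow band, and the si-BRG1 array lay far below it, with a change of -3.96 ± 0.45. The 3 probes of the gene gave changes of -3.96, -4.00, and -3.95. The Cy3 signal of the brightest probe was 44533 on the control array and 2349 on the si-BRG1 array. SMARCA2, the alternative ATPase, stood at -0.56 in control cells and -0.43 in BRG1-depleted cells, a difference of 0.12 ± 0.30. Its dimmer probe was read at 0.60 by the ratio, past 1.5-fold, with a Cy3 signal of 147 in control and 135 in depleted cells. Since the RNA is that of whole cultures, fewer cells with a transcript and less of it per cell cannot be told apart. By their brightest probes, the targets of the other siRNAs stayed within 1.5-fold on the si-BRG1 array (EP300 0.38, MLLT10 0.03, DOT1L -0.32), but the dimmer EP300 probe passed it, at 0.78 ± 0.33, with a Cy3 signal of 126 in control and 274 in depleted cells.

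**Figure D1:**
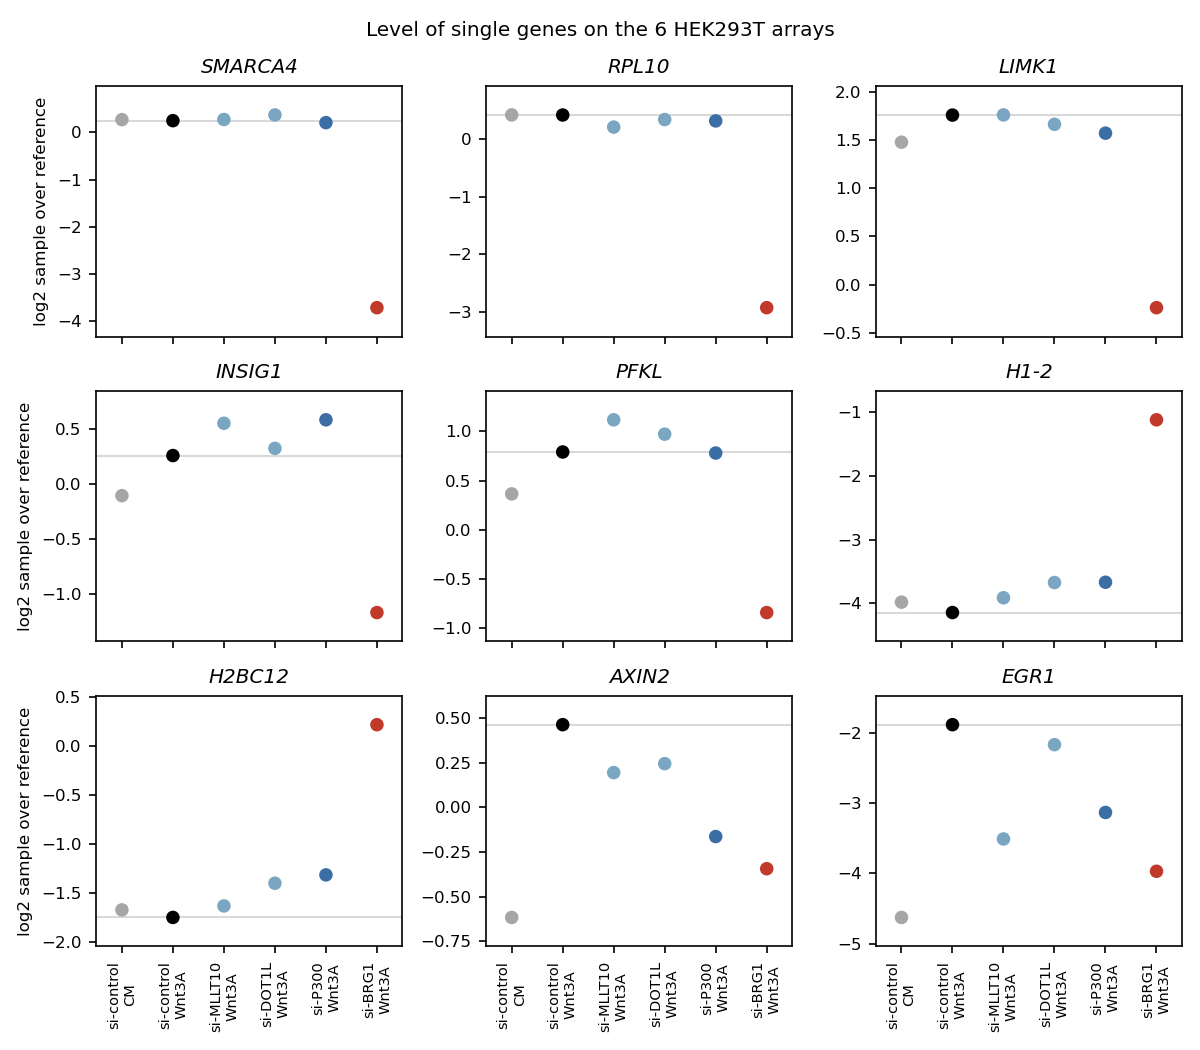
Level of 9 genes (log2 sample over reference) on each of the 6 HEK293T arrays, 1 point per array, with a line at the si-control Wnt3A level and the si-BRG1 array in red. SMARCA4 lay between 0.20 and 0.37 on 5 arrays and at -3.71 on the si-BRG1 array, whereas for AXIN2 and EGR1 the si-control array in control medium was the lowest and the si-BRG1 array the next lowest.

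BRG1 depletion moved more genes than any of the 3 other knockdowns set against the same control array. Of 28041 features measured on both arrays, 3376 (12.0%) were more than 1.5-fold lower and 2848 (10.2%) more than 1.5-fold higher than in si-control cells. At 2-fold, 1238 features (4.41%) were lower and 667 (2.38%) higher. Of the features called, 54.2% were lower, but this share was 28.5% with normexp and loess normalisation and 69.9% from the sample channel alone, so the balance of decreases and increases depends on the scaling.

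Counted as genes, each read by its brightest probe, 1741 of 13431 (13.0%) fell and 1131 (8.42%) rose past 1.5-fold, and the median change over all genes was -0.01. Of these genes, 3.24% were lower and 2.69% higher after MLLT10 depletion, 3.27% and 1.48% after DOT1L depletion, and 7.43% and 3.25% after P300 depletion. Against si-P300 on the same slide, 10.1% of 13154 genes were lower and 8.89% higher. The si-BRG1 array was the lowest of the 6 HEK293T arrays for 82.1% of the genes that fell and for 31.3% of all genes. It was the highest for 88.2% of those that rose and for 29.5% of all. The control array also stood out: it was the highest of the 6 for 52.3% of the genes that fell, against 15.9% of all genes, and the lowest for 41.3% of those that rose, against 13.3%. A gene can therefore be called because the control array lies apart. The genes more than 1.5-fold below each of the 5 other arrays numbered 472 (3.51% of all genes, 27.1% of those that fell), and 307 genes were more than 1.5-fold above each of them (2.29% of all, 27.1% of those that rose). Over the 12808 genes bright in both channels, the SD of the difference between the si-BRG1 array and each other array was 0.41 to 0.48, against 0.21 to 0.36 between pairs of the other 5. Counts of list members that fell or rose, given below, are to be read beside the 13.0% and 8.42% of all genes.

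**Figure D2:**
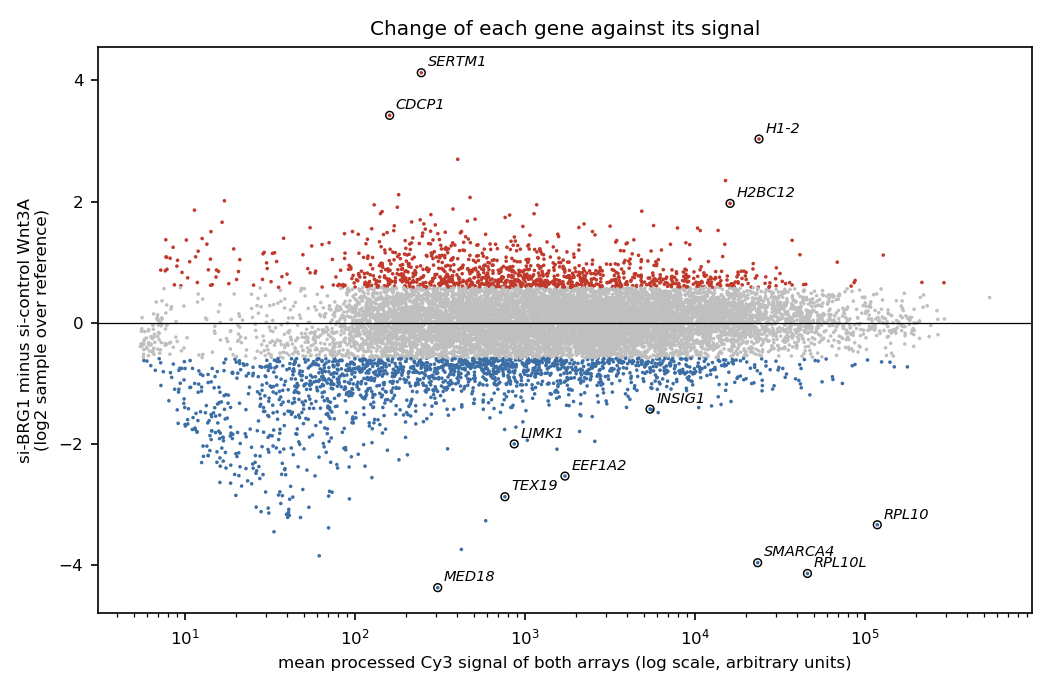
Change of each gene after BRG1 depletion (log2 sample over reference, si-BRG1 minus si-control Wnt3A) against its mean processed Cy3 signal on a log axis, 1 point per gene without Y-linked genes, with genes past 1.5-fold lower in blue and higher in red. SMARCA4, RPL10, RPL10L, H1-2, and H2BC12 changed at high signal, while many of the decreases past 2-fold lie at the dim end of the axis.

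Many decreases were of dim genes. Of the genes that fell, 79.8% were well above background in the sample channel on both arrays, against 95.7% of all genes and 94.9% of those that rose. The largest decreases were therefore ranked among genes bright on both arrays, with a change beyond 2 times the program error and a si-BRG1 level outside the range of the 5 other arrays.

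The deepest decreases so ranked were those of RPL10L, SMARCA4, and RPL10. RPL10 encodes a protein of the large ribosomal subunit that is needed for the joining of the subunits. Its level was 0.41 in si-control cells with and without Wnt3A, 0.20 after MLLT10 depletion, 0.33 after DOT1L depletion, 0.31 after P300 depletion, and -2.92 after BRG1 depletion, so that only the si-BRG1 array stood apart. The 4 RPL10 probes gave changes of -4.06, -3.37, -3.97, and -3.33. RPL10L, a near-identical intronless copy normally used in the testis, was read at -4.13 ± 0.45, and its probe cannot be assumed to tell the copies apart. Against 13.0% and 8.42% of all genes, 5 of 50 ribosomal protein genes measured fell and 0 rose. Their median was -0.04 by the ratio but -0.76 from the sample channel alone, so whether the group as a whole was lower depends on the scaling. RPS20 was the next lowest, from -1.37 in control cells to -2.37, followed by RPL3, at -0.73.

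TEX19, a gene of germ cells and placenta, fell 7.30-fold, from 0.93 to -1.94, with the 4 other arrays between 0.24 and 1.48. LIMK1, the kinase that phosphorylates cofilin and so stabilises actin filaments, fell 3.99-fold, from 1.76 to -0.24, with the others between 1.48 and 1.76. EEF1A2, a translation elongation factor of muscle and neurons, fell from 0.83 to -1.69, with the others between 0.04 and 0.64. For these 3 genes the si-BRG1 array lay well below all others. IGSF21 fell by 2.08, GRB7, an adaptor of receptor tyrosine kinases, by 2.26, GABRE, a GABA receptor subunit, by 2.55, ANGPTL2 by 2.17, and AGR2 by 2.14 on the log2 scale. For GABRE the control array was the highest, at -4.25, with the 4 other arrays between -5.91 and -4.95. AGR2 was at -5.49 on the control array and between -6.64 and -6.15 on the others, and changed by -0.99 against si-P300. Under normexp and loess GRB7, GABRE, ANGPTL2 (1.21), and AGR2 (1.08) turned positive.

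In 4 of the 15 largest decreases the control array was itself far above the rest. SERPINB2, a protease inhibitor, was at -4.94 on the si-control Wnt3A array, at -7.04 on the si-BRG1 array, and between -6.63 and -5.91 on the others, so that the change was -2.10 against the control but -0.41 against si-P300. CYP2W1 (-2.18 and -0.78), MEIOB, a meiotic DNA-binding protein (-2.10 and -0.81), and the histone pseudogene H1-9P (-2.34 and -0.52) had the same form. The cut of these 15 lay at -2.00, and the next gene was at -1.98.

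Some genes were well above background in the sample channel on 1 array only, 214 on the si-control array and 37 on the si-BRG1 array, and for these a fold is a lower bound, given as the smallest of the folds from the scaled Cy3 signal, the processed Cy3 signal, and the ratio to reference. The brightest was MED18, a subunit of the Mediator complex. Its Cy3 signal was 551, 590, 693, 596, and 605 on the 5 other arrays and 26.1 after BRG1 depletion, at least 20.7-fold lower than in si-control. Only the si-BRG1 array was low, and its reference signal for this probe, 197, was near those of the others (201 to 221). MLC1 was at least 4.62-fold lower, C4BPA at least 5.82-fold, and the noncoding RNA PICSAR at least 5.15-fold, each with its lowest Cy3 signal on the si-BRG1 array. DEFB1, at least 2.27-fold lower, was at 158 on the control array and 32.6 on the si-BRG1 array, but at 15.2 to 58.6 on the 4 others, so that only the control array stood apart. In the other direction, a probe of CDCP1 was at least 10.7-fold higher, at 308 against 12.6, but the reference signal of that spot was also higher, 627 against 274, and the 2 other CDCP1 probes read 5.1 and 7.6 on the si-BRG1 array and 5.5 and 23.2 on the control array. OLFML3 was at least 2.41-fold higher, at 92.2 against 19.2 to 30.2 on the 5 other arrays. HAVCR2 was at least 1.86-fold and SCG5 at least 1.77-fold higher. GLTPD2, at least 2.97-fold higher, was between 85.8 and 111 on every array but the control, which read 23.4.

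Within the SWI/SNF complex, 27 of the listed subunit genes were measured. Against 13.0% and 8.42% of all genes, 7 of the 27 fell and 0 rose. Their median was -0.13, and -0.02 against si-P300. Besides SMARCA4, those that fell by their brightest probe were BCL11B (-1.32), SS18 (-0.92), SMARCB1 (-0.80), BCL11A (-0.79), BCL7B (-0.66), and BCL7A (-0.64). Dimmer probes of BCL11A were read at 0.48 and -0.58, and the dimmer BCL7A probe at 0.34, so the probes of these genes disagree. SS18, a subunit of the canonical complexes, was at 0.50 in control cells, between 0.31 and 0.61 on the 4 other arrays, and at -0.42 after BRG1 depletion. Its dimmer probe differed by only -0.17 ± 0.30, with a Cy3 signal of 483 in control and 466 in depleted cells. SMARCB1, the core subunit lost in rhabdoid tumours, was at 2.35 in control cells, between 2.15 and 2.36 on the other arrays, and at 1.55 after depletion. Its Cy3 signal was 1183 in control and 1146 in depleted cells, so the fall by the ratio is hardly seen in that signal. By the ratio of their brightest probes, SS18 and SMARCB1 were lowest on the si-BRG1 array. BCL7A was not, with 0.95 after BRG1 and 0.87 after P300 depletion. The BCL7A Cy3 signal was 4882 in control and 4941 in depleted cells, and the sample channel alone gave -0.23. PHF10 (0.52) and DPF2 (0.46), related subunits with PHD fingers, had the highest values on the list.

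The clearest increase was that of histone genes. Histone proteins package DNA, and the clustered genes for H1, H2A, H2B, H3, and H4 are transcribed together in S phase into mRNAs that end in a stem-loop and mostly lack a poly(A) tail. The samples were labelled from a T7 promoter primer on total RNA, a method that reads polyadenylated transcripts, so the values are those of histone transcripts with a poly(A) tail. Of 38 histone genes measured, 22 rose and 0 fell. Their median was 0.80, and 0.73 against si-P300 on the same slide. Of the 38, 18 were more than 1.5-fold above each of the 5 other arrays, against 2.29% of all genes. The medians after the other knockdowns were 0.16 (si-MLLT10), 0.17 (si-DOT1L), and 0.30 (si-P300).

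The increase was uneven among the histone classes. All 12 H2B genes rose, by 1.25 to 1.97, whereas 2 of 7 H2A, 1 of 8 H3, 5 of 7 H4, and 2 of 4 H1 genes did. H2B levels lay between -2.14 and -1.57 in control cells, between -2.31 and -1.21 on the 4 other arrays, and between -0.84 and 0.22 after BRG1 depletion, so the ranges did not overlap. H2B genes are near-identical, and their probes may share transcripts. H1-2, a linker histone, rose 8.18-fold, from -4.15 to -1.12 (change 3.03 ± 0.50), with the others between -3.98 and -3.67. Its Cy3 signal was 4417 in control cells, 4323 to 5661 on the other arrays, and 43327 after BRG1 depletion. H1-4 rose by 1.63. H2AC19 and H2AC7, histone H2A genes that were not on the list, rose by 2.35 and 1.84. The H2B increase was 0.95 to 1.53 against si-P300.

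**Figure D3:**
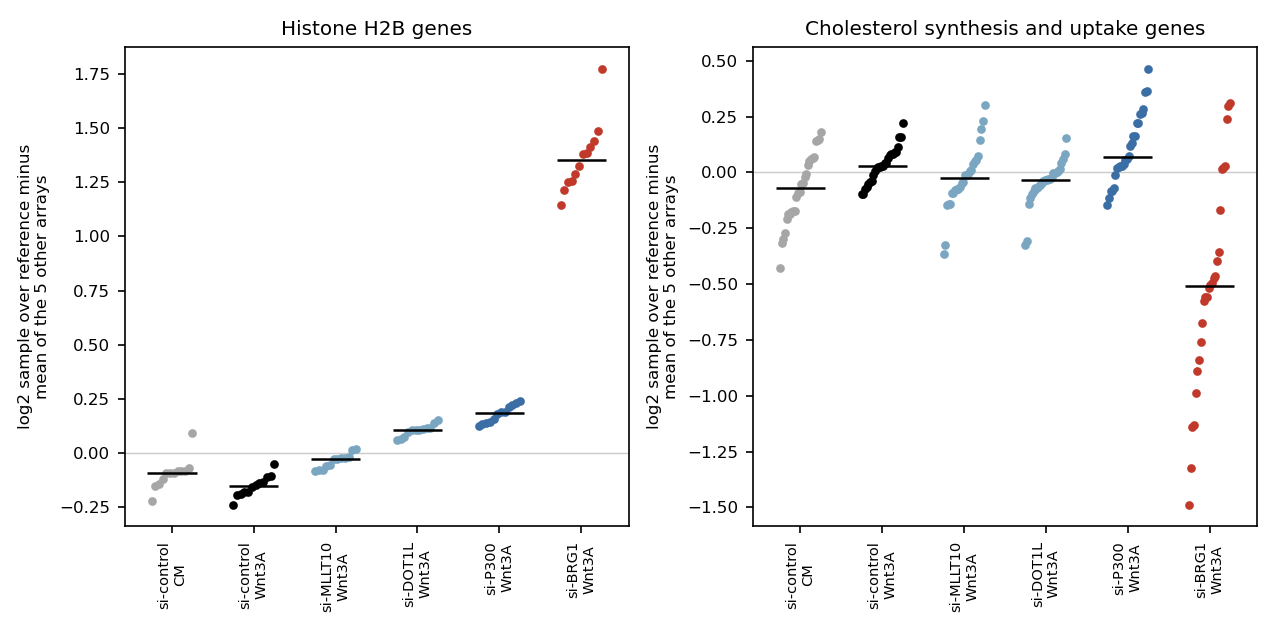
Levels of the 12 H2B genes and of 26 genes of cholesterol synthesis and uptake on the 6 HEK293T arrays, each gene as log2 sample over reference minus its mean over the 5 arrays other than si-BRG1, with a bar at the median. All 12 H2B genes lie higher on the si-BRG1 array than on any other array, and the cholesterol genes spread downward there, with 4 of 26 changes above 0 against the control.

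The letters CCAAT were common in the promoters of histone genes, and those of the octamer mainly in H2B genes. H1-2, with the largest increase, and H2BC4, with the second largest of the H2B genes, are shown by the 250 bases before their RefSeq start on the minus strand of GRCh38.p14, at chr6:26056471-26056720 for H1-2 and chr6:26123927-26124176 for H2BC4. Capitals mark CCAAT on either strand (ATTGG on the other) and the octamer ATTTGCAT on either strand, and no marked letters of these motifs overlap.
H1-2: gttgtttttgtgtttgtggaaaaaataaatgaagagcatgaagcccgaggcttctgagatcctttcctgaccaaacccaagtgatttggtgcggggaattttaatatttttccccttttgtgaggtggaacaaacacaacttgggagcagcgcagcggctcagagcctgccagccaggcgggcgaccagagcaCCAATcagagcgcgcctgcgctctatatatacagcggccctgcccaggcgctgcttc
H2BC4: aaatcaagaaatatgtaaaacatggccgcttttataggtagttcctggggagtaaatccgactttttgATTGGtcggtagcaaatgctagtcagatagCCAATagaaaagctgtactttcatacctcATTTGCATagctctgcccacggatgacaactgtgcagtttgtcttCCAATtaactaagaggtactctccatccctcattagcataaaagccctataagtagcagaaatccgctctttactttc

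H1-2 holds 1 CCAAT and no octamer, and H2BC4 holds 3 CCAAT and 1 octamer. Over the same window, CCAAT was found in all 12 H2B genes, in 29 of the 33 listed histone genes with a promoter in the table, and in 32.0% of all 35116 promoters. The octamer, a site read by OCT1 in H2B genes, was found in 9 of 12 H2B genes, in 16 of 33 histone genes, and in 1.63% of all promoters. A gene counts here and below if any of its promoters holds the letters, whereas the share of all promoters counts each promoter once. A match is a match of letters and does not show that a factor is bound.

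Many genes of cholesterol synthesis and uptake were lower. Of 26 measured, 12 fell and 0 rose, with a median of -0.54, and of -0.60 against si-P300 on the same slide. The medians of the other knockdowns were -0.05 (si-MLLT10), -0.09 (si-DOT1L), and 0.04 (si-P300). Of the 26 genes, 7 were more than 1.5-fold below each of the other 5 arrays, against 3.51% of all genes. INSIG1, the membrane protein that holds the SREBP precursors in the endoplasmic reticulum and is itself an SREBP target, was at 0.26 in control cells, -0.10 in control medium, 0.55 after MLLT10, 0.32 after DOT1L, and 0.58 after P300 depletion, and at -1.16 after BRG1 depletion, which was by far the lowest level. MSMO1, a C4 demethylase of the sterol ring, fell from 0.18 to -1.18, with the others between -0.36 and 0.32. IDI1 (-1.09), FDFT1 (-1.05), HMGCS1 (-1.01), MVD (-0.76), LSS (-0.68), FDPS (-0.64), TM7SF2 (-0.60), and SQLE (-0.59) also fell. Genes that fell thus lay in the mevalonate steps (HMGCS1, MVD, IDI1, FDPS), around squalene (FDFT1, SQLE, LSS), and at the sterol end of the pathway (MSMO1, TM7SF2). Of 10 genes of fatty acid synthesis, which share SREBP control, 4 fell and 0 rose, with a median of -0.37 and of -0.65 against si-P300. These were SCD, a desaturase (from -0.94 to -1.94), FADS1 (-0.89), FASN (-0.76), and ELOVL6 (-0.72).

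INSIG1 and MSMO1, which fell in both cell lines, are shown by the same 250-base window on the plus strand, chr7:155297628-155297877 for INSIG1 and chr4:165327419-165327668 for MSMO1, with CCAAT on either strand in capitals.
INSIG1: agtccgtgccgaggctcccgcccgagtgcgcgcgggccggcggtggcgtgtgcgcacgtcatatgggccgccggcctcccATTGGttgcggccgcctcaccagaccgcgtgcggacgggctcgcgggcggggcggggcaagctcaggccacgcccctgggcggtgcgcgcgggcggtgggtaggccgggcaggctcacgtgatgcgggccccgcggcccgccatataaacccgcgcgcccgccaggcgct
MSMO1: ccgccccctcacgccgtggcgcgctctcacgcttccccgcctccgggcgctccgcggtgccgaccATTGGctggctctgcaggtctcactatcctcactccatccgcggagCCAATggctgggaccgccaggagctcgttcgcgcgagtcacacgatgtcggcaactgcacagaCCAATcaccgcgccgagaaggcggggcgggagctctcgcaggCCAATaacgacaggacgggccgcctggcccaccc

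INSIG1 holds 1 CCAAT and MSMO1 holds 4. CCAAT was found in 16 of 19 cholesterol genes with a promoter in the table, and the octamer in 1 of 19. The letters TCACNCNAC, a sterol element, were searched on both strands and found in 3 of 19 and in 2.02% of all promoters, and in neither window shown.

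Hypoxia-inducible and glycolytic genes were also lower. Of 29 measured, 9 fell and 0 rose, with a median of -0.47 and of -0.37 against si-P300, and 28 of the 29 changes were below 0. PFKL, the liver-type phosphofructokinase, fell 3.10-fold, from 0.79 to -0.84, with the others between 0.37 and 1.12, and only the si-BRG1 array was below 0. PFKFB4, which makes the phosphofructokinase activator, fell from -1.85 to -2.94, and PFKP fell by 0.85, HK2 by 0.82, NDRG1 by 0.82, and VEGFA by 0.77 on the log2 scale. The medians after the other knockdowns were -0.12, -0.11, and -0.11 for si-MLLT10, si-DOT1L, and si-P300.

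Genes of the actin cytoskeleton and of the extracellular matrix were lower than in si-control, with smaller differences from si-P300. Of 19 actin genes and SRF targets, 10 fell and 0 rose, with medians of -0.69 against si-control and -0.43 against si-P300. FLNA, filamin A, which crosslinks actin, was at 0.58 in si-control cells and -1.36 after BRG1 depletion, and at -0.45 after P300 depletion and -0.14 in control medium. It was lowest on the si-BRG1 array, but its levels were already spread. ZYX, the focal adhesion protein zyxin, fell by 1.15 and VCL, vinculin, by 0.84. Of 44 matrix genes, 22 fell and 1 rose, with medians of -0.59 against si-control but -0.19 against si-P300, and the si-control Wnt3A array was the highest of the 6 for 17 of the 44. COL5A1, a fibrillar collagen, fell by 1.51, COL6A2 by 1.35, and AGRN, agrin, by 1.31. Under normexp and loess the medians of both lists turned positive (0.22 and 0.33).

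The control array was high for other lists too. Of 18 genes known to depend on BRG1 in other cells, 8 fell and 1, CDKN1A, rose. Their median was -0.48 against si-control and 0.00 against si-P300, and the control array was the highest of the 6 for 10 of the 18. Under normexp and loess the median against si-control turned to 0.48. Of 38 interferon-stimulated genes, 10 fell and 3 rose, with medians of -0.34 and -0.13, and of 0.58 against si-control under normexp and loess. XAF1, an interferon-induced gene, fell by 1.44 against si-control but was 0.45 higher than after P300 depletion. EGR1, an immediate early gene, was at -1.89 in si-control cells after Wnt3A, -3.97 after BRG1 depletion, and -4.63 in control medium. It was also below the control after MLLT10 (-3.51), P300 (-3.13), and DOT1L (-2.17) depletion. Of the 10 metallothioneins, small proteins that bind zinc and copper, 5 fell and 0 rose, with medians of -0.56 and -0.40, and MT1F was at -1.96 in control cells, -3.06 after BRG1 depletion, and between -1.93 and -1.34 on the others.

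HOX genes set position along the body axis. Of 30 measured, 10 rose and 2 fell, with a median of 0.54 against si-control and 0.58 against si-P300, and after the other knockdowns the medians were -0.19, -0.08, and -0.14. The leading members were HOXA7 (1.57), HOXA6 (1.36), and HOXA9 (1.32), neighbours in the HOXA cluster. HOXA9 was at 5.23 in control cells, between 5.02 and 5.40 on the others, and at 6.55 after BRG1 depletion. The direction of the HOX median depended on the normalisation (-0.21 under normexp and loess), and for HOXA7 the sample channel alone gave -0.83. HOXD11 fell by 1.45 with the control array the highest of the 6, at 4.29 against 2.84 to 3.19 on all others.

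Of 24 p53 targets, 9 rose and 2 fell, with a median of 0.50 and of 0.36 against si-P300. SESN2, a stress-induced inhibitor of mTORC1 signalling, was at 1.15 in control cells, between 1.15 and 1.38 on the others, and at 2.29 after BRG1 depletion. FAS, a death receptor, rose from -1.17 to -0.15, DDB2, a DNA damage sensor, from -1.95 to -0.98, and CDKN1A, the CDK inhibitor p21, from -0.57 to 0.21, all to the highest level of the 6 arrays. BBC3, also on this list, went the other way, from 0.51 to -0.41, the lowest level of the 6 arrays. Its dimmer probes changed by only -0.09 and -0.03. HEK293T cells carry the SV40 large T antigen, which binds p53.

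Of 29 genes of BMP and TGF-β responses, 7 rose and 2 fell, against 8.42% and 13.0% of all genes. The list median was 0.30, and 0.64 against si-P300. BAMBI, a pseudoreceptor that blocks BMP and TGF-β signals, rose from -3.11 to -1.58, with the others between -3.60 and -3.12. TGFB3, a ligand, rose by 1.08. TGFB1, another ligand, fell by 1.26.

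Wnt genes moved unevenly. Of 25 Wnt targets and feedback genes, 7 fell, against 13.0% of all genes, and 1, RNF43, rose (0.63). Their median was -0.28 against si-control, 0.03 against si-P300, and 0.23 against si-control under normexp and loess. AXIN2, a feedback inhibitor that is a direct target in most cells, was at -0.62 in control medium and 0.46 after Wnt3A, at 0.19 with si-MLLT10, 0.24 with si-DOT1L, -0.16 with si-P300, and -0.34 with si-BRG1. The si-BRG1 level was the lowest of the 5 Wnt3A-treated cultures and above that of untreated cells, with a change of -0.81 ± 0.29, and of -0.18 against si-P300. ZCCHC12 was at 5.15 in control medium, 5.74 after Wnt3A, between 5.63 and 5.92 with the 3 other siRNAs, and 4.56 after BRG1 depletion, below untreated cells. Its Cy3 signal went from 3706 to 573 and its reference signal from 69.2 to 24.3, so that the ratio change of -1.18 ± 0.76 rests on a dim reference spot. TCF7, a partner of β-catenin on DNA, was at -2.11 in control medium, -1.31 after Wnt3A, and -2.31 after BRG1 depletion, near the untreated level, and the other Wnt3A cultures lay between -1.49 and -1.19. NKD1, a feedback inhibitor of Dishevelled, fell by 0.67, APCDD1, an inhibitor at the cell surface, by 0.87, and SFRP1, a secreted antagonist, by 1.13. The APCDD1 Cy3 signal was 265 in control and 257 in depleted cells, and its change against si-P300 was -0.15.

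Other targets of the pathway stayed within 1.5-fold of the control. LEF1 differed by 0.16 ± 0.31, MYC by 0.23 ± 0.31, SP5 by -0.28 ± 0.30, and TNFRSF19 by 0.34 ± 0.46. In si-control cells, MYC was not higher after Wnt3A (-0.88) than in control medium (-0.64), nor was this SP5 probe (-0.08 and 0.08). LEF1 (-0.88 and -1.21) and TNFRSF19 (-2.86 and -3.30) were. The dimmer SP5 probes were also higher after Wnt3A (-5.33 and -5.93) than in control medium (-6.30 and -6.95). Their changes after BRG1 depletion were -0.09 and 0.18. Of 35 core pathway genes, 8 fell and 1, APC, rose (0.61), with a median of -0.23, and of -0.02 against si-P300. The receptor FZD10 fell from -0.42 to -1.53, and stood at -1.38 after P300 depletion. CTNNB1, which encodes β-catenin, differed by -0.47 ± 0.29.

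Not all of the 15 largest increases rest on the sample channel. PIK3R3, a regulatory subunit of PI3-kinase, rose from -0.26 to 1.68 (1.95 ± 0.33), with the others between 0.36 and 0.70. UHMK1, a kinase, rose by 1.80, LSMEM1 by 1.83, and UNC5C, a netrin receptor, by 1.88. SERTM1 was first by the ratio, with a change of 4.13 ± 0.70, but its Cy3 signal was 287 in control cells and 206 after depletion, while its reference signal was 88.6 and 3.6. The reference channel was dim in the same way for 6 of the 15 largest increases, SERTM1, CACNB4, ISL1, SNAP91, JPH1, and EN1, whose changes were 1.80 to 4.13 by the ratio and -0.72 to 0.36 from the sample channel alone. PRKG1, a cGMP-dependent kinase, was read at 2.70 by the ratio and 0.67 from the sample channel. Its control level, 1.93, was also the lowest, with si-BRG1 at 4.63 and the others between 2.84 and 3.27. For H1-2, H2AC19, H2BC12, H2AC7, PIK3R3, UHMK1, and LSMEM1 the sample channel alone gave 3.05, 2.09, 1.84, 1.42, 1.73, 1.53, and 1.44. The 15 largest increases ended at 1.80, and the next gene was at 1.78.

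Other lists of pathways and gene families had medians between -0.23 and 0.22. Of 37 mitosis genes, 3 rose and 0 fell (median 0.22), and of 36 DNA replication genes, 5 fell and 0 rose (median -0.20). These shifts were small but ran through most members. Changes were above 0 for 31 mitosis genes, and the si-BRG1 array was the highest of the 6 for 27, against 29.5% of all genes. For replication genes, 27 changes were below 0, and the si-BRG1 array was the lowest for 21, against 31.3% of all genes. Against si-P300 the medians were 0.28 and -0.10. In Ls174T cells the median after BRG1 depletion was -0.17 for mitosis genes, of opposite sign, and -0.16 for replication genes. Of 38 genes of oxidative phosphorylation, 1 rose and 0 fell (0.04), and of 19 housekeeping genes, 1 fell and 2 rose (-0.13). Medians of the remaining lists of pathways and gene families lay between -0.23 and 0.18, among them heat shock proteins (-0.09), YAP/TEAD targets (0.18), and Polycomb and Trithorax genes (0.11). A median near 0 can hold members that moved both ways. Of 30 integrins and cadherins, 9 fell and 7 rose, of 24 immediate early genes 7 and 4, of 26 neuron genes with REST sites 5 and 7, and of 20 NF-κB targets and cytokines 6 and 2, against 13.0% and 8.42% of all genes.

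**Figure D4:**
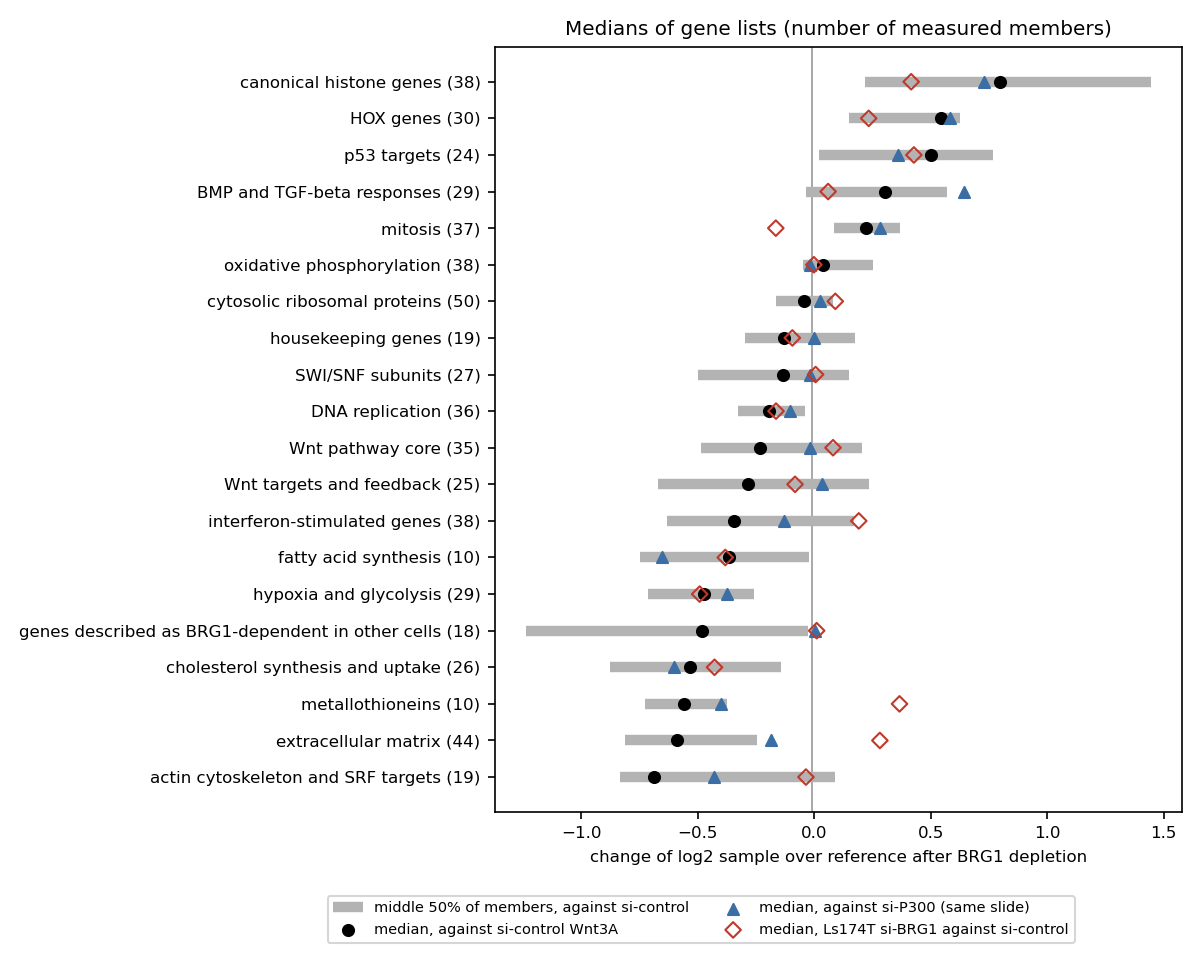
Median change of each gene list after BRG1 depletion, with the number of measured members in parentheses: black points and grey bars (middle 50% of members) against si-control Wnt3A, blue triangles against si-P300 on the same slide, open red diamonds for Ls174T cells. Histone genes (0.80, 0.73, and 0.42), cholesterol genes (-0.54, -0.60, and -0.43), and hypoxia and glycolysis genes (-0.47, -0.37, and -0.49) lie on the same side in all 3, while matrix genes do not (-0.59, -0.19, and 0.28).

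In Ls174T cells, SMARCA4 fell by 2.53 after BRG1 depletion against their own control, and 3.69% of 12890 genes were more than 1.5-fold lower and 7.29% higher. The Ls174T si-BRG1 array lay on slide 3 and its control on slide 2, the slide of the HEK293T si-BRG1 array, so that slide 2 enters both comparisons, with opposite sign. Across 26375 features the changes in the 2 lines had a Pearson r of -0.04 and a Spearman rho of 0.06, a description over features that share probes and the reference RNA, and r was 0.11 over the 23435 features whose sample channel was well above background on all 4 arrays. Of the 1708 HEK293T decreases measured in both lines, 124 (7.26%) were decreases in Ls174T, which is 26.1% of the 476 there, and 319 (18.7%) were increases. Of the 1024 increases, 139 (13.6%) were increases in Ls174T, 14.8% of the 940 there, and 54 were decreases.

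A few groups and genes moved the same way in both lines. Histone genes had a median of 0.42 in Ls174T, where 7 of the 12 H2B genes and H1-2 (1.55) rose. Cholesterol genes had a median of -0.43, with 6 of 26 lower and 0 higher, including INSIG1 (-1.12), MSMO1 (-0.92), IDI1 (-0.70), and FDFT1 (-0.64). Fatty acid genes had a median of -0.38, hypoxia and glycolysis genes of -0.49 with 12 of 29 lower, and p53 targets of 0.43 with 8 of 23 higher. Past 2-fold in both lines and bright in HEK293T, 10 genes were lower and 16 higher. All 10 of the former but 6 of the latter were well above background on both Ls174T arrays as well. Among the former were the RPL10 probes (-1.80 to -2.00 in Ls174T), RPL10L (-2.05), TEX19 (-1.67), LIMK1 (-1.07), INSIG1, and ZYG11B, a substrate receptor of a ubiquitin ligase (-1.39 in HEK293T and -1.20 in Ls174T). Among the latter were H1-2, H2AC19 (1.34 in Ls174T), and ATP10D (1.16 in HEK293T and 1.13 in Ls174T). SLC40A1, the iron exporter ferroportin (1.22 in HEK293T), CHIC1 (1.51), NEFM, a neurofilament protein (1.36), and DMRTA1 (1.21) were not well above background on the Ls174T control array and were so on the Ls174T si-BRG1 array, and TMEM100 (1.33) was so on neither, so the size of their change in Ls174T is not given. MED18, nearly lost in HEK293T, differed by -0.51 in Ls174T. Matrix genes (median 0.28, 5 lower and 12 higher of 44) and actin genes (median -0.04) were not lower as lists in Ls174T. FZD10 was well above background on the Ls174T si-BRG1 array and not on its control.

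**Figure D5:**
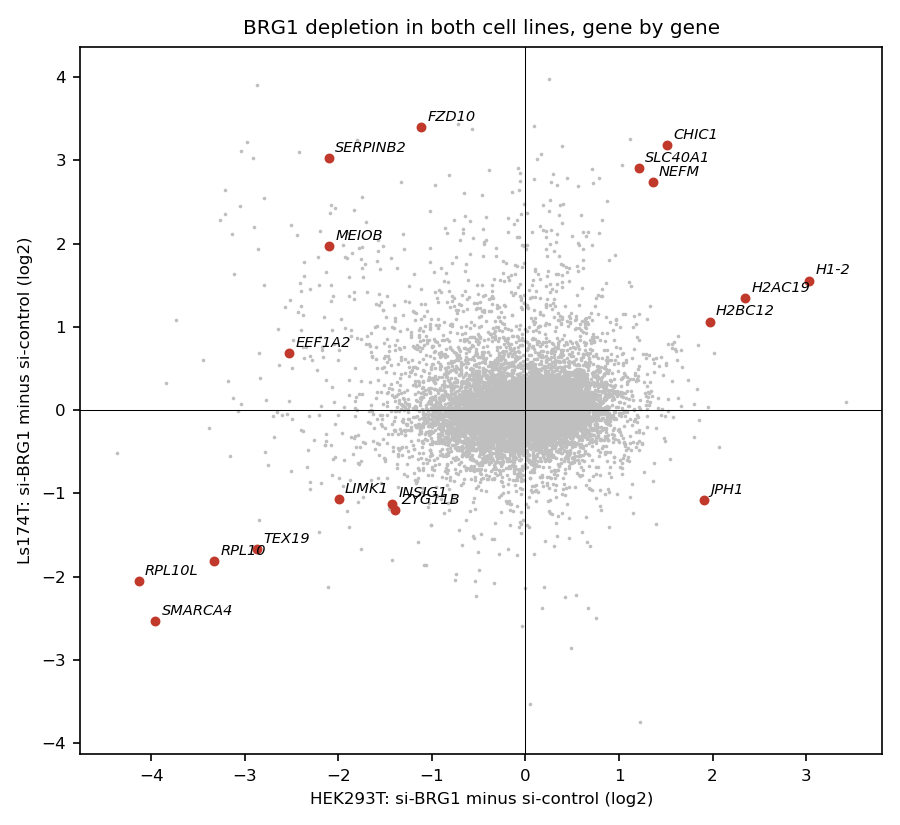
Change of each gene after BRG1 depletion in Ls174T cells (vertical axis) against that in HEK293T cells (horizontal axis), both as log2 si-BRG1 minus si-control, 1 point per gene without Y-linked genes, with named genes in red. SMARCA4, the RPL10 genes, TEX19, LIMK1, INSIG1, and ZYG11B lie at the lower left and H1-2, H2AC19, H2BC12, NEFM, SLC40A1, and CHIC1 at the upper right, while SERPINB2, MEIOB, EEF1A2, and FZD10 lie at the upper left. NEFM, SLC40A1, CHIC1, and these 4 genes were not well above background on the Ls174T control array, and their vertical position is uncertain.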

How the data were processed

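RNA of 12 samples was hybridised to Agilent 4x44K arrays, and 2 arrays form the comparison. Sample RNA was in Cy3 and reference RNA in Cy5. The authors extracted the spots with Agilent Feature Extraction (10.5.1.1 per the file headers, 8.5.1.1 in the submitters' processing notes). The deposited intensity values are median signal, local background, and processed signal, background-subtracted and dye-normalised by the program. The deposited log10 ratios of Cy5 over Cy3 were turned to sample over reference and converted to log2. Features were kept if not controls or outliers and above 2-fold local background in either channel on both arrays.

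A gene has the value of its brightest probe. RefSeq accessions named 27612 of 29084 features (94.9%), and promoters are from RefSeq (GRCh38.p14). Named genes are SWI/SNF subunits, the 15 largest changes each way outside the range of the other arrays, the 5 brightest bounds each way, up to 4 leading members per list, siRNA targets and chosen Wnt targets, and up to 8 genes each way past 2-fold in both lines, without 1 Y-linked gene. Some genes that the rule names are not reported here. HOXD11, XAF1, EGR1, and the further members named beside a list were chosen after their values were seen. Bounds are the smallest of 3 folds, from the program's dye-normalised Cy3 signal after Aquantile scaling, that signal unscaled, and the ratio, and are open to dye bias since dyes were not swapped. Taking the smallest was chosen after seeing the data. Members and lists were chosen with earlier results of these data known. Python 3.11.15, pandas 2.3.3, numpy 2.4.6, R 4.3.3, and limma 3.58.1 were used, and the steps were tested on simulated data. The number of arrays, 1 per condition, limits the precision. On 238 probes printed in several spots (5 or more kept), the median SD of the change between spots was 0.063.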

Additional observations from a re-analysis of the deposited data

Results flagged for a closer look

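Some changes had opposite signs in the 2 cell lines, and the difference between the lines was not tested, with 1 array per condition in each. Of the genes that fell in HEK293T cells, the change in Ls174T cells was 0.68 for EEF1A2, 1.31 for IGSF21, 0.76 for CYP2W1, 0.64 for ANGPTL2, 3.02 for SERPINB2, 1.97 for MEIOB, 1.82 for XAF1, and 3.39 for FZD10. EEF1A2, IGSF21, SERPINB2, MEIOB, XAF1, and FZD10 were not well above background on the Ls174T control array, so the size of these changes is uncertain. JPH1, read as higher in HEK293T cells, changed by -1.08 in Ls174T cells. The median of the metallothioneins was -0.56 in HEK293T and 0.37 in Ls174T cells, where 0 of the 10 genes passed 1.5-fold.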

How the results depend on the processing

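With 1 array per condition, leaving out a replicate was not possible, and a fold or a median was recomputed under other settings instead. No paired analysis was possible because each condition has 1 array and the labels give no replicate numbers that both groups share.

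The features more than 1.5-fold lower and higher, 3376 and 2848 as reported, were 1822 and 4580 with normexp and loess, 6957 and 5544 with no filter on signal, and 899 and 642 when a feature had to pass against each of the other 5 HEK293T arrays, a setting chosen after seeing the data. With normexp and loess and background outliers replaced, 1516 were higher, and 7249 were lower in the sample channel alone, 2055 with both channels above 2-fold background, and 2186 against si-control in control medium. Past 2-fold, 1238 and 667 as reported, they were 360 and 1639 with normexp and loess, 378 and 168 with background outliers replaced, 440 and 308 with both channels above background, 3151 and 2071 with no filter, and 215 and 100 against each other array. The lower count past 2-fold was also 3628 in the sample channel alone, 744 with the sample channel well above background, 739 against si-P300, 730 against the mean of the other 3 knockdowns, and 650 against control medium.

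List medians turned with normexp and loess for actin genes (0.22), matrix genes (0.33), HOX genes (-0.21), interferon-stimulated genes (0.58), and BRG1-dependent genes (0.48), and the Wnt target median was 0.23. Lists with medians near 0 turned as well, among them ribosomal protein (0.015), heat shock (0.074), immediate early (0.29), and NF-κB (0.82) genes. Against si-P300 the median of BRG1-dependent genes was 0.0036, of Wnt targets 0.034, and of BMP and TGF-β genes 0.64, and against control medium it was 0.0032 for interferon-stimulated and -0.22 for actin genes. In the sample channel alone, ribosomal protein genes had a median of -0.76. The medians of histone, cholesterol, fatty acid, hypoxia and glycolysis, p53, and metallothionein genes kept their sign under every setting run, though with normexp and loess hypoxia and glycolysis genes came to -0.13, outside the middle 50% of their members as reported, and metallothioneins to -0.089, outside the whole range of theirs.

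Single genes turned mostly with normexp and loess: among decreases BCL11B (0.96), GRB7 (0.34), GABRE (0.75), CYP2W1 (0.29), ANGPTL2 (1.21), AGR2 (1.08), SERPINB2 (0.93), MEIOB (0.87), H1-9P (0.62), COL5A1 (0.39), MT1F (0.36), NKD1 (0.27), SFRP1 (0.25), and XAF1 (0.66), and among increases UNC5C (-0.52), EN1 (-0.77), JPH1 (-0.84), SNAP91 (-0.75), CACNB4 (-0.80), ISL1 (-1.42), PRKG1 (-0.52), SERTM1 (-0.63), HOXA7 (-0.15), HOXA6 (-0.22), and HOXA9 (-0.75). In the sample channel alone, JPH1 (-0.091), SNAP91 (-0.43), SERTM1 (-0.72), HOXA7 (-0.83), and HOXD11 (0.30) turned, against control medium AXIN2 (0.27), EGR1 (0.66), and XAF1 (0.22), and against si-P300 BCL7A (0.086) and XAF1 (0.45). The cause was not tested. The deposited table of values holds the same log ratios, so its results were the same by construction and are no separate check. The outlier flags and the centring turned no named gene or list. The mean over probes was run for lists only and turned that of histone acetyltransferases and siRNA targets, from -0.03 to 0.044. For genes bright on 1 array only, the scaled Cy3 signal alone gave folds of 2.64 to 21.3.

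The correlation with Ls174T, -0.04 as reported, was 0.50 with normexp and loess, 0.16 with background outliers replaced, 0.20 with both channels above background, 0.089 with the sample channel well above background, -0.31 in the sample channel alone, -0.071 with no filter, and -0.11 over features past 2-fold in HEK293T, so neither its sign nor its size is settled. The precision of dim genes is limited by signal over background, with a median of the sample channel of 2.64 to 3.24 times local background on the HEK293T arrays.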
